A study of Oryza sativa with 6 samples.

Results

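Aspartic proteases and regulators of cell death were followed in the nucellar projection of young rice seeds through 8 loci, taken as every array probe whose name begins with one of their locus IDs. These were 25 of the 42418 probes on the array. There were 4 loci for aspartic proteases, namely OsAP25, OsAP37, oryzasin 1 and the nucellin-like OsAsp1. The other loci encode the cell death regulators Bax inhibitor 1 and OsLSD1 and the basic helix-loop-helix transcription factors TDR and EAT1.

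The nucellus is the maternal tissue around the embryo sac, and most of it breaks down by programmed cell death while the endosperm grows. The nucellar projection is the part that remains next to the vascular bundle and passes nutrients to the endosperm. Aspartic proteases are pepsin-like enzymes that cut proteins with a pair of catalytic aspartates, and in barley the aspartic protease-like protein nucellin marks dying nucellar cells. In the tapetum of the rice anther, another layer that dies on schedule, TDR acts with EAT1, and EAT1 switches on the genes of OsAP25 and OsAP37, whose proteins can trigger cell death. Bax inhibitor 1, a membrane protein of the endoplasmic reticulum, and the zinc-finger protein LSD1, best known from Arabidopsis, both hold cell death back.

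The arrays compared A-OsMADS29 line 2, A-OsMADS29 line 14 and wild type, all of the cultivar ZH11 and grown under the same conditions in pots in a phytotron. Both lines carry the genotype label of an OsMADS29 mutant, and OsMADS29 is a MADS-box transcription factor tied by the series title to nucellus breakdown. Each group had 2 arrays, each of an independent biological sample of nucellar projection cells, isolated by laser capture at 3 days after flowering, with RNA amplified in 2 rounds. The labels give neither the number of seeds or plants per sample, nor the kind of mutation, nor a promoter. The p-values measure only the spread between these samples.

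The share of probes well above background ran from 72.9% to 79.8% over the arrays. There were 0 saturated spots, and precision is limited by having 2 arrays in each group. Line 2 shared its slide and scan with wild type, whereas line 14 was alone on another slide, so that line and slide cannot be told apart for line 14. Wild-type replicate 1 stood furthest from the other arrays, with a mean correlation across probes of 0.913. OsMADS29 itself (Os02g0170300, probe AK109522) gave log2 signals, relative to the array's 75th percentile, of -0.27 and 0.89 in line 2, 0.17 and -0.0031 in line 14, against 0.38 and 0.88 in wild type. It was not called different in the lines (-0.43, SE 0.41, limma adjusted p = 0.885). All 3 nucellar projection marker loci, of which OsMADS29 is one, were above background on all 6 arrays. Their summed level, in multiples of the array's 75th percentile, was 43.8 and 40.0 in line 2, 56.6 and 57.1 in line 14, against 59.6 and 47.6 in wild type, most of it from Os08g0535200. Their 9 tested probes had a median difference of -1.29 between both lines and wild type, with 0 above 0 and 0 called. That median was set by the 5 probes of Os03g0170900, at -1.48 to -1.29, while the 2 of Os08g0535200 gave -0.19 to -0.04. Of the 5, AF378185, at -1.48, and AF378186 were each detected on only 3 of the 6 arrays. Probe AK100027 of Os03g0170900 read 2.65 and -1.11 in line 2, 1.91 and 0.82 in line 14, against 2.84 and 1.93 in wild type. Line 2 replicate 1 thus lay between the wild-type arrays for this probe. Of 7 endosperm marker loci, 5 and 6 were above background in line 2, 4 and 5 in line 14, against 4 and 4 in wild type, with summed levels of 19.7 and 7.91, of 13.4 and 14.04, and of 10.5 and 14.3 in those groups. Of their 14 tested probes, 0 were called and 7 had an unadjusted p under 0.05 in limma, beside 7.7% of all probes. The 8 probes of Os06g0133000 gave -4.59 to -3.46 between both lines and wild type, each detected on 3 to 5 of the 6 arrays. Line 2 replicate 1 still read as high as wild type. Probe AF515482 read -1.70 and -7.96 in line 2, -8.84 and -8.13 in line 14, against -2.19 and -1.94 in wild type. Its line 14 readings lay below the lowest detected signal of those arrays, at -7.15 and -7.21. The fitted difference thus rests in part on undetected signal and is not a measured fold. The other way, Os02g0252400, Os05g0499100 and Os07g0182000 gave 1.66 to 2.32. Of these, Os05g0499100 was detected on 3 of the 6 arrays and passed the filter through line 2 alone. Its wild-type readings, -9.075 and -9.46, lay below the lowest detected signal of those arrays. Os01g0762500 and Os02g0249800 had no probe above background on more than 1 array. The remaining endosperm locus, Os02g0528200, gave -0.23 to -0.14 and made up most of each summed endosperm level. The 3 loci marking the green seed layers were above background on all 6 arrays and summed to 79.9 and 49.7 in line 2, 91.9 and 52.3 in line 14, against 52.7 and 40.5 in wild type. Of their 15 tested probes, 14 were above 0 between both lines and wild type, beside 51.8% of all probes. Their median was 0.60 and 0 were called, and probes of a locus are not independent. The part of these other layers in the values below was not tested. In such samples, fewer cells of a type and less RNA per cell cannot be told apart.

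Signals below are given on the log2 scale relative to the 75th percentile of the array, so that 0 marks that percentile and 1 unit is a 2-fold difference. A probe counted as detected where at least 0.5 of its spots were well above background. Of the 25 probes, 21 at 5 loci were detected on all 6 arrays, against 67.1% of all probes. These were every probe of OsAP25, oryzasin 1, OsAsp1, Bax inhibitor 1 and OsLSD1. The single OsAP37 probe was detected on 1 array, and the 3 probes of TDR and EAT1 on none, as for 14.6% of all probes. By their names, 24 of the 25 probes cover coding sequence and 3′ untranslated region, and none shares its cDNA with another locus. The 21 detected probes entered the tests, with no value missing, alongside the rest of the 32419 probes detected on both arrays of at least 1 group. The other 4 did not pass this filter.

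No tested probe of the 8 loci changed at an adjusted p of 0.05 in limma, Benjamini-Hochberg adjusted over all probes. In the mean of both lines against wild type, 0 of 21 were called, where 0.139% of all probes were. In line 2 against wild type it was 0 of 21, beside 0.00617% of all probes, and in line 14 against wild type 0 of 21, beside 0.0432%. In line 14 against line 2 it was 0 of 21, beside 0% of all probes. At an unadjusted p under 0.05 the count of these probes was also 0 of 21 in each comparison, against 7.7%, 6.42%, 6.9% and 3.42% of all probes in the same order. All 4 line arrays were above both wild-type arrays for 0 of 21 and below them for 0 of 21, beside 7.92% and 8.29% of all probes. Fitted values were above 0 for 12 of 21 in both lines, beside 51.8% of all probes, for 10 of 21 in line 2, beside 52.2%, and for 14 of 21 in line 14, beside 52.3%. The median difference between both lines and wild type was 0.01 over the 21 probes and 0.02 over all probes tested. For both lines against wild type, the 95% confidence intervals of the 21 probes reached 0.58 to 1.14 to either side of the fitted value. For each line against wild type and for line 14 against line 2 they reached 0.67 to 1.32. Changes of that size were left unresolved.

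**Figure D1:**
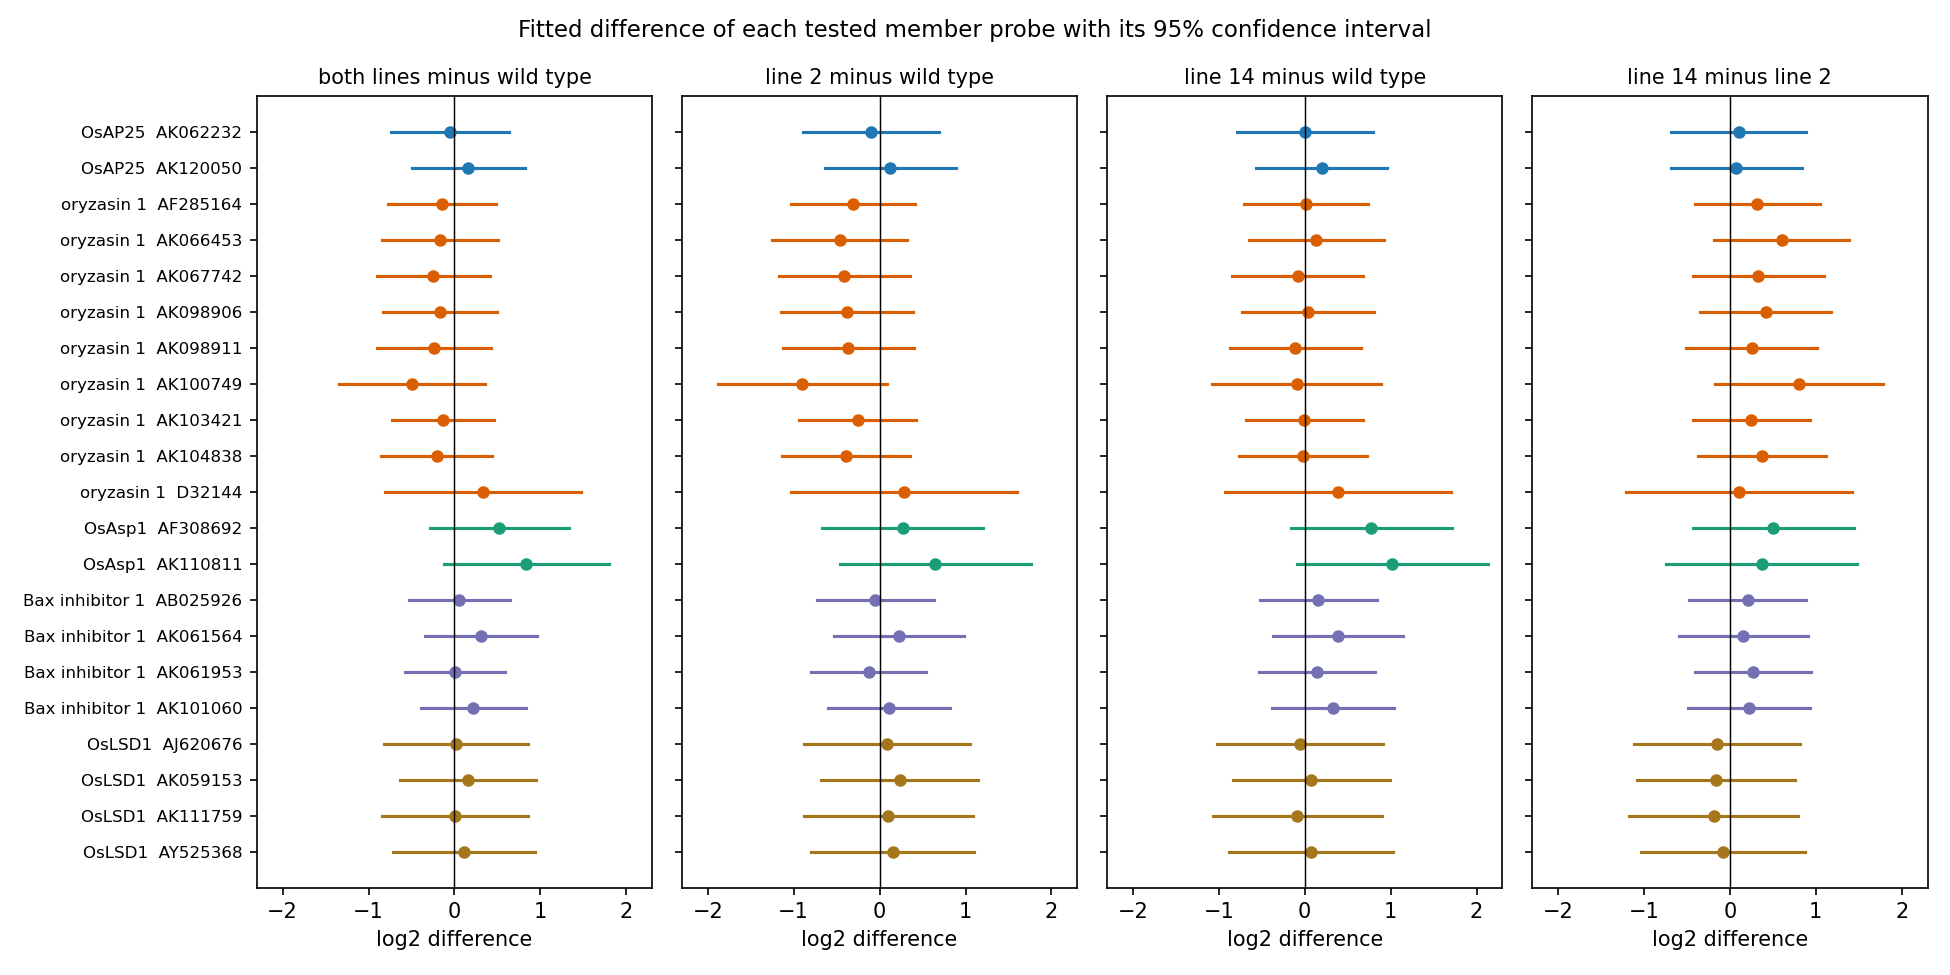
Fitted log2 differences of the 21 tested probes, in 4 panels for the 4 comparisons, with bars for the 95% confidence interval. Every interval includes 0, and the values furthest from 0 are those of OsAsp1 (higher in the lines) and of oryzasin 1 probe AK100749 (lower in line 2 than in wild type).

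OsAP25 (Os03g0186900, chromosome 3), the protease that EAT1 controls in the anther, did not differ between groups beyond the spread of the arrays. Probe AK120050 read 3.00 and 2.97 in line 2, 3.13 and 2.99 in line 14, against 3.099 and 2.624 in wild type. The line arrays all lay between the wild-type arrays or just above the higher of them. The difference between both lines and wild type was 0.16 (SE 0.26, 95% confidence interval -0.50 to 0.82, limma adjusted p = 0.937). Probe AK062232 read 1.85 and 1.79 in line 2, 1.94 and 1.90 in line 14, against 2.20 and 1.64 in wild type. Here the wild-type arrays enclosed all 4 line arrays, and the difference was -0.05 (SE 0.27, 95% confidence interval -0.73 to 0.63, limma adjusted p = 0.984), or 0.23 without wild-type replicate 1 and -0.33 without wild-type replicate 2. Both probes were lowest in wild-type replicate 2. Against line 2 alone and line 14 alone the differences lay between -0.10 and 0.20.

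OsAP37 (Os04g0448500, chromosome 4), the other protease under EAT1 in the anther, is read by a probe, CI469008, that was detected in wild-type replicate 1 alone. Its processed signal, in the scanner's linear units, was 17.2 and 16.5 in line 2, 24.5 and 22.1 in line 14, against 247.8 and 21.2 in wild type. The remaining wild-type array therefore read as low as the line arrays. Of all probes, 801, or 1.89%, were detected on wild-type replicate 1 and on no other array, and a group with 1 detected array of 2 gives no stable level. In a fit with no filter on dim probes, the difference between both lines and wild type was -1.99 (SE 1.10, 95% confidence interval -4.76 to 0.79, limma adjusted p = 0.917). No fold is given, since a single array carries the signal.

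Oryzasin 1 (Os05g0567100, chromosome 5), a rice seed aspartic protease with the insert typical of plant enzymes, had 9 probes, of which 8 gave one pattern. These 8 read lower in both line 2 arrays than in both wild-type arrays, while line 14 lay around wild type. The median over the 8 probes was 3.72 and 3.73 in line 2, 3.85 and 4.27 in line 14, against 4.22 and 3.97 in wild type. Over the 6 arrays the 28 pairs among these probes correlated at 0.745 to 0.994, and since they read the same transcript they are not separate evidence.

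Probe AK100749 showed the widest gap of the 8, with 2.68 and 2.82 in line 2, 3.103 and 4.001 in line 14, against 3.78 and 3.51 in wild type. Both line 2 arrays were below every other array, and line 14 spread to either side of wild type. Its difference was -0.90 between line 2 and wild type (SE 0.39, 95% confidence interval -1.88 to 0.08, unadjusted p = 0.066, limma adjusted p = 0.828). It was -0.50 between both lines and wild type (SE 0.34, 95% confidence interval -1.35 to 0.35, limma adjusted p = 0.838). Probe AK103421, the one with the smallest gap, read 5.04 and 4.85 in line 2, 5.16 and 5.23 in line 14, against 5.24 and 5.17 in wild type. Here line 14 and wild type overlapped, and line 2 differed from wild type by -0.26 (limma adjusted p = 0.974).

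Between line 2 and wild type the 8 probes differed by -0.90 to -0.26, with a median of -0.39. Both line 2 arrays were below both wild-type arrays for 8 of 8, beside 16.4% of all probes, and for 9 of the 21 tested probes, the ninth being Bax inhibitor 1 probe AK061953. No tested probe was higher in both line 2 arrays than in both wild-type arrays, where 16% of all probes were. Between line 14 and wild type the 8 probes differed by -0.11 to 0.14, with a median of -0.01, and 6 of them changed sign under at least 1 other scaling of the arrays. Between both lines and wild type the values were -0.50 to -0.13, with a median of -0.19 and limma adjusted p from 0.838 to 0.944, and -0.36 to -0.07 without wild-type replicate 1. The sign of the line 2 values was negative for all 8 under every scaling tried. Leaving out a single array could not change it, since both line 2 arrays were below both wild-type arrays.

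The ninth oryzasin 1 probe, D32144, did not follow the others. It read -2.28 and -1.90 in line 2, -2.57 and -1.41 in line 14, against -2.80 and -1.95 in wild type, with replicate 2 the higher in every group. Its mean correlation with the other probes of the locus was 0.119 over the 6 arrays, against a median of 0.931 among the 28 pairs of the rest. The lines minus wild type gave 0.33 (SE 0.45, 95% confidence interval -0.81 to 1.47, limma adjusted p = 0.92), and -0.09 without wild-type replicate 1, so that its sign turned on that array. Why this probe departs from the rest was not tested.

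**Figure D2:**
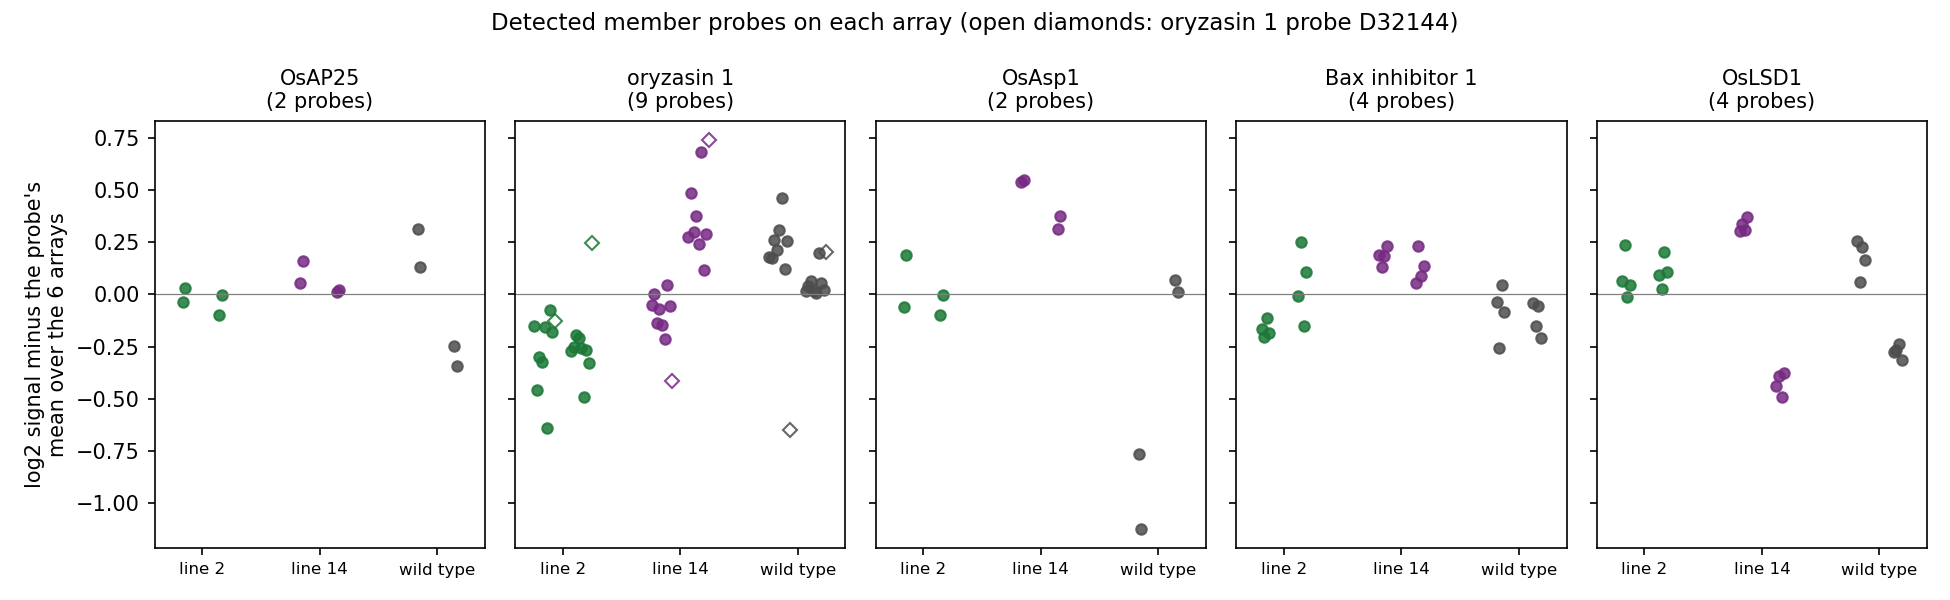
Log2 signal of each tested probe minus that probe's mean over the 6 arrays, by array, in 5 panels for the 5 loci that were detected throughout. Groups run from line 2 and line 14 to wild type with replicate 1 on the left, and open diamonds mark oryzasin 1 probe D32144. Oryzasin 1 is lowest in line 2, OsAsp1 is lowest in wild-type replicate 1, and OsLSD1 is highest in line 14 replicate 1 and lowest in line 14 replicate 2.

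OsAsp1 (Os11g0184800, chromosome 11), the rice protease that resembles barley nucellin, had the largest positive fitted differences among the 21 probes, but they rested on 1 wild-type array. Probe AK110811 read 4.89 and 4.70 in line 2, 5.25 and 5.08 in line 14, against 3.58 and 4.71 in wild type. Probe AF308692 read 4.66 and 4.62 in line 2, 5.26 and 5.03 in line 14, against 3.95 and 4.79 in wild type. In both probes wild-type replicate 1 was the lowest array, wild-type replicate 2 lay close to line 2, and both line 14 arrays were above the rest.

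The difference of AK110811 between both lines and wild type was 0.83 (SE 0.38, 95% confidence interval -0.13 to 1.80, unadjusted p = 0.0767, limma adjusted p = 0.717). It was 0.27 without wild-type replicate 1 and 1.40 without wild-type replicate 2, with an adjusted p of 0.151 in the second case, the lowest of any member in any comparison and setting. That of AF308692 was 0.52 (SE 0.32, 95% confidence interval -0.29 to 1.33, limma adjusted p = 0.814), and 0.11 and 0.94 with those arrays left out. The wild-type arrays were 1.13 apart for AK110811 and 0.83 apart for AF308692, where the median over all tested probes was 0.52.

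Line 14 alone gave the larger of the values for the separate lines. For AK110811 the difference between line 14 and wild type was 1.02 (SE 0.44, 95% confidence interval -0.09 to 2.13, unadjusted p = 0.0651, limma adjusted p = 0.761), or 2.03-fold with the interval reaching below 1. Without wild-type replicate 1 this was 0.45, and without wild-type replicate 2 it was 1.59. For AF308692 the fitted value was 0.78 (SE 0.37, 95% confidence interval -0.16 to 1.71, limma adjusted p = 0.798), or 0.36 without wild-type replicate 1. For line 2 the probe AK110811 gave 0.65 (limma adjusted p = 0.94), or 0.08 without wild-type replicate 1 and 1.22 without wild-type replicate 2. AF308692 gave 0.27 in line 2 (limma adjusted p = 0.982), or -0.15 without wild-type replicate 1. Both line 14 arrays exceeded both wild-type arrays in 6 of the 21 tested probes, the 2 of OsAsp1 and the 4 of Bax inhibitor 1, beside 17.5% of all probes. No tested probe was lower in both line 14 arrays, where 17.2% of all probes were.

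Bax inhibitor 1 (Os02g0125300, chromosome 2) varied little over the 6 arrays, and its 4 probes differed between both lines and wild type by 0.01 to 0.31, with limma adjusted p from 0.874 to 0.997. Probe AB025926 read 2.53 and 2.69 in line 2, 2.88 and 2.75 in line 14, against 2.66 and 2.65 in wild type. Its wild-type arrays were almost equal, and line 2 lay on both sides of them. Probe AK061564, with the largest difference of the 4, read 2.41 and 2.87 in line 2, 2.75 and 2.85 in line 14, against 2.36 and 2.47 in wild type. That difference was 0.31 (SE 0.26, limma adjusted p = 0.874), and it turned to -0.03 under normexp background correction with quantile normalization.

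The other probes of the locus were as flat. AK061953 read 2.37 and 2.34 in line 2, 2.67 and 2.58 in line 14, against 2.53 and 2.43 in wild type. AK101060 read 2.34 and 2.64 in line 2, 2.77 and 2.67 in line 14, against 2.45 and 2.32 in wild type. In all 4 probes both line 14 arrays lay above both wild-type arrays, by 0.14 to 0.39 in the fit, while line 2 differed by -0.13 to 0.23. AK061953 was the one tested probe of the 21 with both line 2 arrays below, and both line 14 arrays above, both wild-type arrays, beside 1.41% of all probes. For AK061953 the difference of line 14 from wild type turned to -0.03 under normexp with quantile normalization. The 4 probes correlated with each other at 0.189 to 0.858 over the 6 arrays, with a median of 0.714, and their whole range over the arrays was at most 0.51.

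OsLSD1 (Os08g0159500, chromosome 8), the rice counterpart of the Arabidopsis zinc-finger protein, differed more within line 14 and within wild type than between groups. Probe AK111759 read 3.05 and 3.27 in line 2, 3.37 and 2.57 in line 14, against 3.29 and 2.83 in wild type. Probe AY525368 read 3.03 and 3.09 in line 2, 3.36 and 2.61 in line 14, against 3.15 and 2.67 in wild type. In both, line 14 held the highest and the lowest of the 6 arrays.

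Probe AJ620676 read 3.03 and 3.05 in line 2, 3.27 and 2.52 in line 14, against 3.22 and 2.69 in wild type. Probe AK059153 read 2.69 and 2.48 in line 2, 2.79 and 2.06 in line 14, against 2.51 and 2.18 in wild type. Replicate 1 was the highest array and replicate 2 the lowest array of line 14 for 4 of 4 probes, 0.73 to 0.80 apart, and the wild-type arrays were 0.32 to 0.53 apart in the same direction. The 4 probes correlated at 0.853 to 0.978 with each other, so the pattern over arrays was common to them. Between both lines and wild type they differed by 0.01 to 0.16, with limma adjusted p from 0.954 to 0.998 and confidence intervals within -0.84 to 0.95, and by 0.24 to 0.35 without wild-type replicate 1. For the lines taken separately the differences were 0.09 to 0.24 in line 2 and -0.09 to 0.08 in line 14, and in line 14 each of the 4 changed sign under at least 1 other scaling.

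TDR (Os02g0120500, chromosome 2) and EAT1 (Os04g0599300, chromosome 4), the regulators that act upstream of the protease genes in the tapetum, were not well above background on any array. The processed signals of the TDR probes ran from 4.56 to 18.52 for AK106761 and from 9.89 to 24.95 for AK119580. The EAT1 probe AK119509 read 73.5 and 6.7 in line 2, 102.9 and 49.4 in line 14, against 35.8 and 12.95 in wild type. Replicate 1 had the higher signal of EAT1 in every group. On 3 arrays, 1 in each group, the EAT1 signal exceeded the lowest signal of any detected probe on that array, which ran from 14.03 to 60.3, although its own spots were not marked as well above background. No fold change is given for either gene, since both sides were below background, and in a fit with no filter on dim probes 0 of the 4 dim probes were called in any comparison. These probes do not show that the genes were silent, only that a signal was not distinguished from background.

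**Figure D3:**
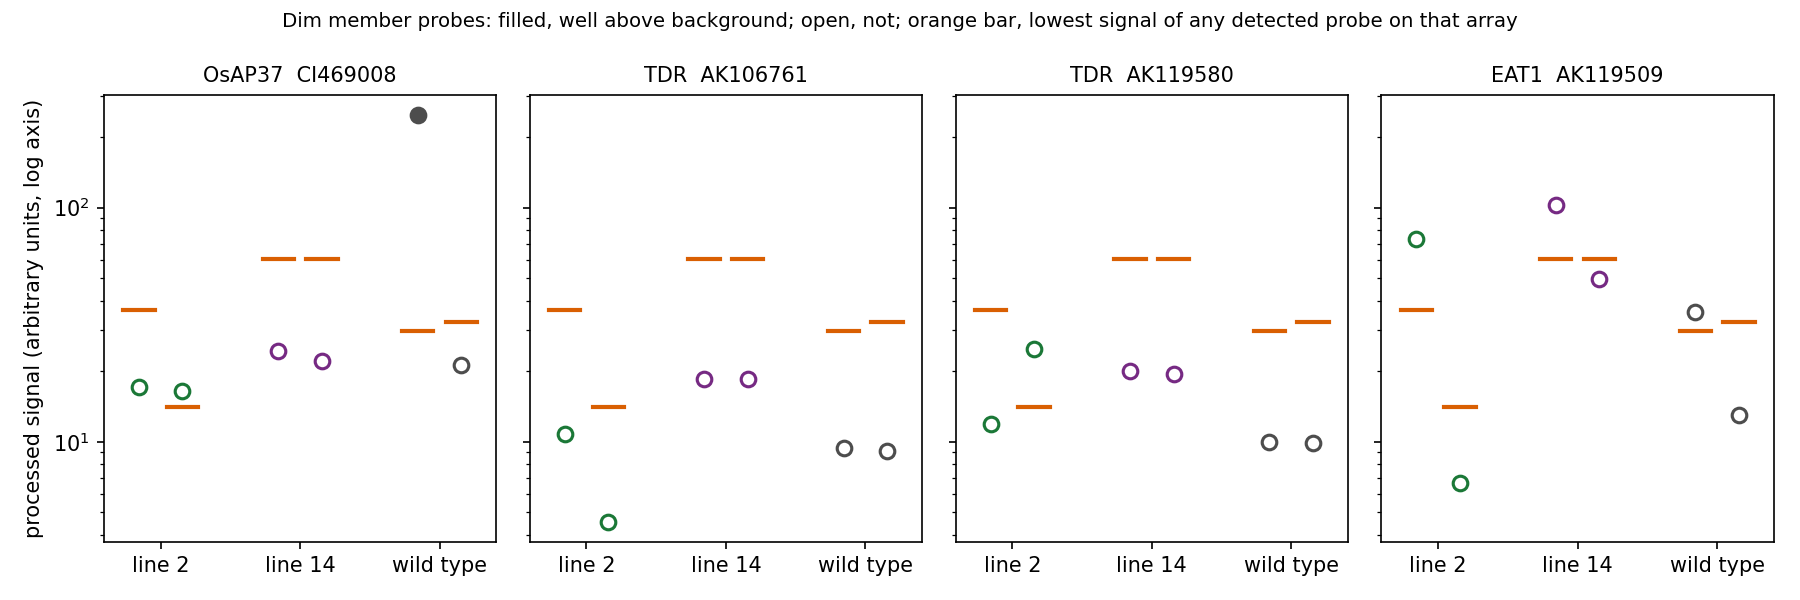
Processed signal on a log axis of the probes of OsAP37, TDR and EAT1 on each array, with line 2, line 14 and wild type from left to right. Filled points are well above background, open points are not, and orange bars give the lowest signal of any detected probe on that array. The OsAP37 signal of 247.8 in wild-type replicate 1 is the one filled point.

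Between the lines, 17 of the 21 tested probes were higher in line 14 than in line 2, where 50.6% of all probes were, although 13 of 21 were so under normexp with quantile normalization. The median was 0.25, against 0.01 over all probes. Both line 14 arrays exceeded both line 2 arrays in 14 of the 21, beside 15.4% of all probes, and in none were both lower, beside 16.2%. The 14 probes include the 8 concordant probes of oryzasin 1, and probes of a locus are not independent. The largest difference was that of oryzasin 1 probe AK100749, at 0.80 (SE 0.39, 95% confidence interval -0.18 to 1.78, unadjusted p = 0.0905, limma adjusted p = 1). The 8 oryzasin 1 probes differed by 0.25 to 0.80, of which AK103421 turned negative under 3 of the other scalings. The OsAsp1 probes differed by 0.51 and 0.37, of which AK110811 turned to -0.07 under normexp with quantile normalization. Bax inhibitor 1 differed by 0.16 to 0.27 and OsLSD1 by -0.19 to -0.08. The lines lay on separate slides, and line and slide cannot be told apart in this comparison.

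The spread between replicates of the 21 probes was small in line 2, with a median distance of 0.148, against 0.394 over all tested probes. In line 14 it was 0.343 against 0.382, and in wild type 0.266 against 0.52. The probe furthest apart was Bax inhibitor 1 AK061564 in line 2, at 0.46, oryzasin 1 D32144 in line 14, at 1.16, and OsAsp1 AK110811 in wild type, at 1.13. Distances over the all-probe median were found for 1 of 21 probes in line 2, 10 of 21 in line 14 and 5 of 21 in wild type. Of the 25 probes, 20 were read from the low-gain scan on all arrays, as marked in the files for bright spots.

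**Figure D4:**
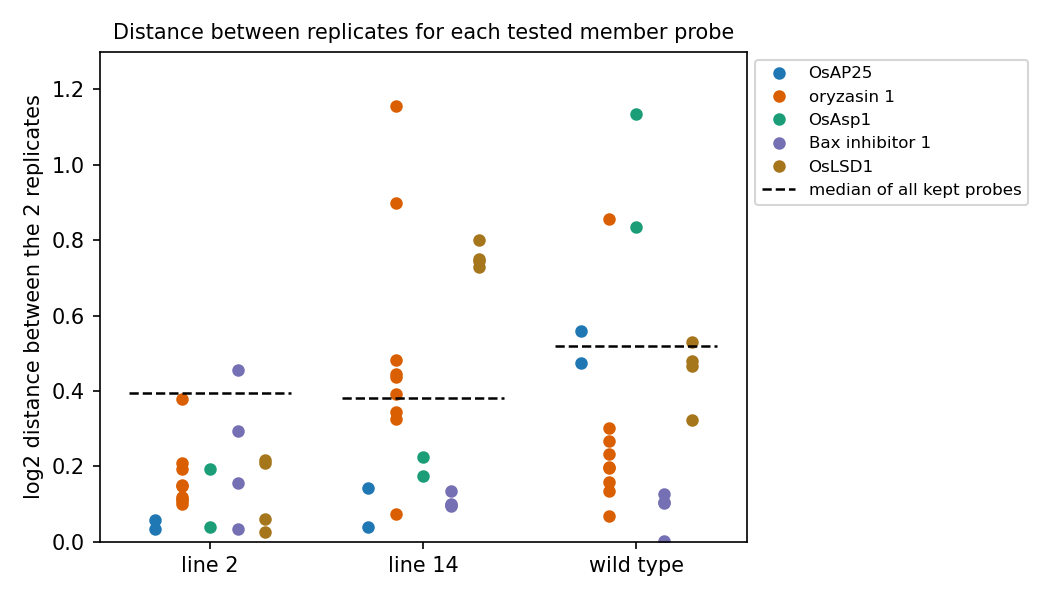
Distance between the replicate arrays of a group, in log2 units, for each tested probe, with line 2 and line 14 before wild type. The dashed line is the median over all tested probes of that group, at 0.394 in line 2, 0.382 in line 14 and 0.52 in wild type. OsAsp1 in wild type and OsLSD1 in line 14 lie above it. So do most oryzasin 1 probes in line 14, single probes of oryzasin 1, OsAP25 and OsLSD1 in wild type, and a Bax inhibitor 1 probe in line 2.

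Another 14 loci, 5 of cell death, 5 of its proteases and 4 of tapetal transcription factors, are given by locus ID without names because the files do not annotate them, and 11 had a tested probe. Of their 33 tested probes, 0 rose and 0 fell in the mean of both lines. An unadjusted p under 0.05 in limma was found for 4 of 33, beside 7.7% of all probes. Of these, 3 were among the 16 probes of the 5 cell death loci. All 3 were probes of a single locus, Os05g0530400, and probes of a locus are not independent. The median difference of the 33 was -0.08, against 0.02 over all probes, with 12 of 33 above 0, beside 51.8% of all probes. The 4 probes of Os05g0530400, 1 of the cell death loci, gave -3.08 to -2.35 and were each detected on 2 to 4 of the 6 arrays. The highest value was that of Os02g0313400 probe AK073608, at 0.34 (SE 0.34, limma adjusted p = 0.89). The lowest fitted value was that of Os05g0530400 probe AB050098, which was detected on both wild-type arrays and on no line array. It read -3.92 and -6.56 in wild type and passed the filter through wild type alone. For a lower bound, each line array was set to the higher of the probe's own signal and the lowest detected signal on that array. The wild-type mean was at least 5.61-fold above the mean of these line values, or 2.25-fold without wild-type replicate 1. The fitted difference of both lines from wild type had a limma adjusted p of 0.605. The cysteine protease and vacuolar processing enzyme loci among them had 10 tested probes, a median of 0.02 and 0 calls. Of the 4 tapetal transcription factor loci, 2 had a tested probe, Os09g0449000 was detected on no array and Os01g0293100 on 2.

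The probe most like the brightest probe of each locus over the 6 arrays was found among all tested probes of other loci by Pearson correlation. For OsAP25 it was a probe of Os12g0538100 (r = 0.9964). For oryzasin 1 it was one of Os08g0198300 (r = 0.9897), and for OsAsp1 one of Os02g0326700 (r = 0.9948). Bax inhibitor 1 was closest to Os05g0540100 (r = 0.9899) and OsLSD1 to Os03g0121700 (r = 0.9979). With 6 arrays such values arise readily among this many probes: between 16 and 133 probes exceeded 0.95 for each locus. No member of another of these loci came as close, the highest such value being 0.727, between oryzasin 1 and Bax inhibitor 1.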

How the data were processed

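Agilent arrays of design 15241 were read in 1 colour by Feature Extraction 10.7.3.1, per the file headers. The processed signal the authors deposited is a linear intensity, with background subtracted and no scaling between arrays. Log2 values stand in the authors' deposited table, whose columns each have a median of 10.4. Once sorted, the columns match to within 0.000577, so the arrays share 1 distribution, and each column tracks its array's spot signal. The deposited flags hold 0 or 1 per spot.

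Here, outlier spots (0.0983% to 0.183% per array) and 1417 control spots of 45151 were left out, log2 signal was scaled to each array's 75th percentile, and spots of a probe were averaged. Probes detected on both arrays of at least 1 group, 32419 of 42418, entered a single limma 3.58.1 fit (R 4.3.3) with 3 group means, all 6 arrays and Benjamini-Hochberg adjustment. Figures used matplotlib 3.10.9. The code was tested on simulated data.

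The members, gene lists and named genes were chosen with earlier results of these data known. Every probe of the 8 loci was named by rule, with the extremes of the other lists. The reference gene table, of 39387 genes, matched 0 of the 8 locus IDs, so a planned list of further aspartic proteases could not be formed. Alternatives covered background correction, scaling, the authors' table, filters, 1 probe per locus, an intensity trend, blocks, the arrays fitted and each array left out. Normexp used the median spot signal with an offset of 50, in place of the mean signal planned.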

Additional observations from a re-analysis of the deposited data

Results flagged for a closer look

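The Bax inhibitor 1 probe AK061953 was flagged because the lines lay on opposite sides of wild type, with both line 2 arrays below and both line 14 arrays above both wild-type arrays. Line 14 minus line 2 was 0.27 on the log2 scale, and the test of that difference gave a limma adjusted p of 1. Such opposite sides were found for 457 tested probes, or 1.41%.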

How the results depend on the processing

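Under every alternative tried, 0 of the tested probes of the 8 loci were called, over 1364 refitted values, of which 104 changed sign. The 104 are not to be read as a share of 1364, since many settings could not alter a fitted difference. Filters, the intensity trend, blocks, array weights and arrays outside a comparison left it as it was. Sign changes could come only from background correction, scaling, the authors' table or leaving out an array of the groups compared. Bax inhibitor 1 probe AK061564 turned to -0.0294 in both lines under normexp with quantile normalization. Counts over all probes depended on the setting. For both lines (45 calls) they were 1 with no filter, 0 with probes detected on all 6 arrays, 1 with array weights, which were added after seeing the data, and 0 to 255 with an array left out, the highest without wild-type replicate 2. For line 2 (2 calls) they were 8 under quantile normalization, 8 in the authors' table, 1 with no filter, 0 with detection on all 6 arrays, 5 with 1 probe per locus, 0 with only the arrays compared, and 0 to 108 with an array left out. For line 14 (14 calls, 8 higher and 6 lower) they were 36 under normexp with quantile normalization (14 higher and 22 lower), 39 under quantile normalization alone, 39 in the authors' table, 1 with no filter, 1 with detection on all 6 arrays, 9 with 1 probe per locus, 24 with an intensity trend, 0 with only the arrays compared, 1 with array weights, and 0 to 122 with an array left out. For both lines the split of 23 higher and 22 lower became 20 and 41 under normexp with quantile normalization, 20 and 28 under quantile normalization alone and 20 and 30 in the authors' table. Line 14 against line 2 had 0 calls throughout. Median scaling raised the median of all probes in line 14 by 0.108.

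Replicate number was not treated as a pairing in the main fit, and the deviations of same-numbered arrays correlated at 0.049 to 0.0705 over all tested probes. Such correlations do not show how the samples were collected. With replicate number as a block, 0 probes were called in each comparison. Slide as a block is absorbed by line 14, so it cannot change the 2 calls of line 2 and tests nothing. Leaving out an array puts a lone array in its group, which is taken to vary like the others. With 2 arrays a group, only changes well beyond the intervals given above could be called.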
